A study of Mus musculus with 30 samples.

Results

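The Zfp36 family of mRNA decay factors was followed in primary fibroblasts from mouse tail tendon. The members are Zfp36, Zfp36l1 and Zfp36l2, 3 of the 35972 genes that the RNA tables share, together with the 5 of 16367 listed chromatin sites that the authors' annotation gives to these genes. The genes were chosen by their RNA values under both inhibitors, so their levels and changes are given as a description without a test. The sites were taken by gene name from lists that hold changed sites only.

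All groups are labelled wildtype and were treated in medium with 0.1% serum. For RNA there were 3 libraries for the solvent DMSO, 3 for 10 µM of the myosin II inhibitor blebbistatin, and 3 for 30 µM of Y27632, a kinase inhibitor that lowers actomyosin contractility. ATAC libraries, which mark accessible chromatin, covered the same treatments with 3 libraries each. A further 12 genomic DNA libraries, 3 per group, held the solvent, blebbistatin, doxycycline at 10 ng/mL, and both drugs together, with blebbistatin again at 10 µM. The labels do not state what doxycycline induced in cells given as wildtype, name no assay for these 12 libraries in particular, and give neither treatment times nor the number of animals. Nothing in them says that the replicates came from separate cultures, so the tests measure only the spread between these libraries.

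Zfp36 (tristetraprolin), Zfp36l1 and Zfp36l2 are RNA-binding proteins with paired CCCH zinc fingers. They bind AU-rich elements near the end of short-lived mRNAs, many of them for cytokines, growth factors and immediate early proteins, and recruit the CCR4-NOT deadenylase and the decapping machinery. The kinases p38 and MK2 phosphorylate Zfp36, which then binds 14-3-3 proteins and decays its targets less well, and protein phosphatase 2A reverses this. Zfp36 is itself an immediate early gene whose mRNA carries AU-rich elements. The RNA level measured here says nothing of protein or of phosphorylation.

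Zfp36 lies on the minus strand at chr7:28376784-28379228, Zfp36l1 on the minus strand at chr12:80107760-80113013 and Zfp36l2 at chr17:84183924-84187947 (RefSeq on GRCm38.p6, the assembly also called mm10). The 250 bases before the transcription start are shown for Zfp36 and Zfp36l1, the 2 members with an available promoter sequence. The promoter of each was also a listed site, which lies over part of these bases. No promoter sequence of Zfp36l2 was available, so it was not searched for motifs. The sequences shown are from RefSeq on GRCm38.p6, on the strand of the gene. Capitals mark, in Zfp36, an EGR motif (GCGNGGGCG), an ETS motif (CCGGAAG) and a CArG box, the motif bound by serum response factor, and in Zfp36l1 an AP-1 motif (TGANTCA) and a TATA motif (TATAAA).
Zfp36, chr7:28379229-28379478: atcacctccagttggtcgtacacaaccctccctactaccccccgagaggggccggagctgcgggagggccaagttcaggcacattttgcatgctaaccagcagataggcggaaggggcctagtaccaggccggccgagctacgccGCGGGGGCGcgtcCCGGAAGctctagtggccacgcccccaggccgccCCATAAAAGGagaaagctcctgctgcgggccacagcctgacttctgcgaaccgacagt
Zfp36l1, chr12:80113014-80113263: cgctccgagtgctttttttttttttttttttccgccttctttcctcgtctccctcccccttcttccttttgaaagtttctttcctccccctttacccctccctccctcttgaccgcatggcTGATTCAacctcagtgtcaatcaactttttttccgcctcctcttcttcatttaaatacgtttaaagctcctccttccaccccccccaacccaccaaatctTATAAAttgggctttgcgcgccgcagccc

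Counted from the transcription start, the EGR match of Zfp36 spans bases -105 to -97, the ETS match -92 to -86 and the CArG box -58 to -49. The AP-1 match of Zfp36l1 spans -129 to -123 and the TATA match -29 to -24. Both strands were searched, and the matches shown do not overlap each other. Of 32851 RefSeq promoter windows of the same length, 4.697% held the EGR motif, 6.907% the ETS motif, 1.467% the CArG box, 6.749% the AP-1 motif and 12.368% the TATA motif. Neither window held the TEAD motif GGAATG, present in 12.642% of windows, or the CRE motif TGACGTCA, present in 1.546%. The Zfp36 window was 64.8% G or C and the Zfp36l1 window 48.4%, against a median of 52.4% over all windows. A match is a description of these letters and not a site of binding.

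Library depth was 23375386 to 37061737 reads in genes, and replicates of each group differed by more than counting noise. The 11 fibroblast and tendon markers all had a mean of at least 10 reads. The second blebbistatin library lay farthest from the mean of its group, with an SD of 0.1033 on the log2 scale over 11465 genes against 0.0661 to 0.0826 in the other 8 libraries. Summed markers of macrophages and leukocytes were at 210 to 233 counts per 1000000 reads (CPM) in DMSO, 302 to 342 in blebbistatin and 307 to 349 in Y27632, so both treated groups lay above DMSO. Of these 7 markers 5 had a mean of at least 10 reads, Lyz2 made up most of the sum, and the T cell marker Cd3e was at 0. Summed mural markers were at 239 to 247 CPM in DMSO, 183 to 188 in blebbistatin and 181 to 203 in Y27632. Endothelial markers were at 119 to 121, 75.4 to 84.5 and 107 to 114. The mural fall was mostly that of Acta2, at 151 to 163, 73.5 to 88.2 and 90.5 to 91.5 CPM. Under blebbistatin Rgs5 was also lower than in DMSO, while Cspg4 and Notch3 were higher. Tek made up most of the endothelial sum, at 116 to 118, 71.5 to 80.1 and 103 to 110 CPM. Cdh5 and Kdr were instead higher under blebbistatin than in DMSO. Schwann and nerve markers were at 7.32 to 9.04 CPM in DMSO, 13.2 to 14.4 in blebbistatin and 8.75 to 10.9 in Y27632, so they stood apart from DMSO without overlap under blebbistatin. Epithelial and adipocyte markers were all under a mean of 10 reads. More or fewer cells of a type and more or less RNA per cell cannot be told apart in bulk RNA, and the part of these markers in the changes below was not tested.

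Zfp36l1 was higher under both inhibitors. In normalised counts, which are reads divided by a size factor of each library, it was at 3418.5, 3289.5 and 3453.2 in DMSO and at 7381.2, 7870.7 and 7701.2 under blebbistatin. In the table of the other inhibitor, which was scaled separately, it was at 3553.9, 3415 and 3588.6 in DMSO and at 6829.3, 6713.1 and 7044.9 under Y27632. Every treated library lay well above every DMSO library. The log2 change was 1.18 ± 0.04 (SE, n = 3 libraries per group) under blebbistatin and 0.96 ± 0.03 under Y27632.

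Scaled together over the 9 libraries, Zfp36l1 was at 127.5 ± 3.43 CPM in DMSO, 288.5 ± 10.6 in blebbistatin and 248.9 ± 5.53 in Y27632 (SD, n = 3). The groups did not overlap, so blebbistatin was highest, Y27632 next and DMSO lowest. The log2 difference of blebbistatin from Y27632 was 0.23 ± 0.03 (SE).

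Zfp36l2 separated the inhibitors. Its normalised counts were 4147.3, 4130.1 and 4255 in DMSO and 3341.6, 4418.4 and 3480.3 under blebbistatin. The second blebbistatin library was above all DMSO libraries and the other two were below all of them, so the groups overlapped. The log2 change was -0.17 ± 0.08 (SE, n = 3), and it was -0.29 without the second blebbistatin library and -0.09 without the first.

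Under Y27632 the same gene was at 9260.3, 8632.8 and 9840.4 normalised counts, against 4311.6, 4287.6 and 4421.8 in DMSO. All 3 treated libraries were above all DMSO libraries, with a log2 change of 1.09 ± 0.04 (SE). In the joint scaling Zfp36l2 was at 157.3 ± 2.84 CPM in DMSO, 141.3 ± 23 in blebbistatin and 335.3 ± 21.3 in Y27632 (SD, n = 3). The log2 difference of blebbistatin from Y27632 was -1.23 ± 0.08 (SE), and 3% of the 14955 genes compared had a larger difference in either direction. DMSO and blebbistatin, the lower neighbours in this order, did not differ beyond their spread.

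Zfp36 had the same order of groups as Zfp36l2 at its upper end. Its normalised counts were 561, 642 and 593.9 in DMSO and 557.8, 639.7 and 667 under blebbistatin, with ranges that overlapped almost fully. They were 583.2, 666.5 and 617.2 in DMSO and 901.3, 954.6 and 995.8 under Y27632, where every treated library was above every DMSO library. The log2 change was 0.05 ± 0.08 (SE) under blebbistatin and 0.61 ± 0.06 under Y27632.

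In CPM Zfp36 was at 22.55 ± 1.52 in DMSO, 23.43 ± 2.16 in blebbistatin and 34.47 ± 1.61 in Y27632 (SD, n = 3), so the DMSO and blebbistatin libraries could not be ordered and Y27632 stood above both. The log2 difference of blebbistatin from Y27632 was -0.54 ± 0.07 (SE). A further mouse family gene, Zfp36l3, had 0 reads in all 9 libraries, where 3 reads would be 0.0809 to 0.128 CPM. That floor covers counting error only.

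**Figure D1:**
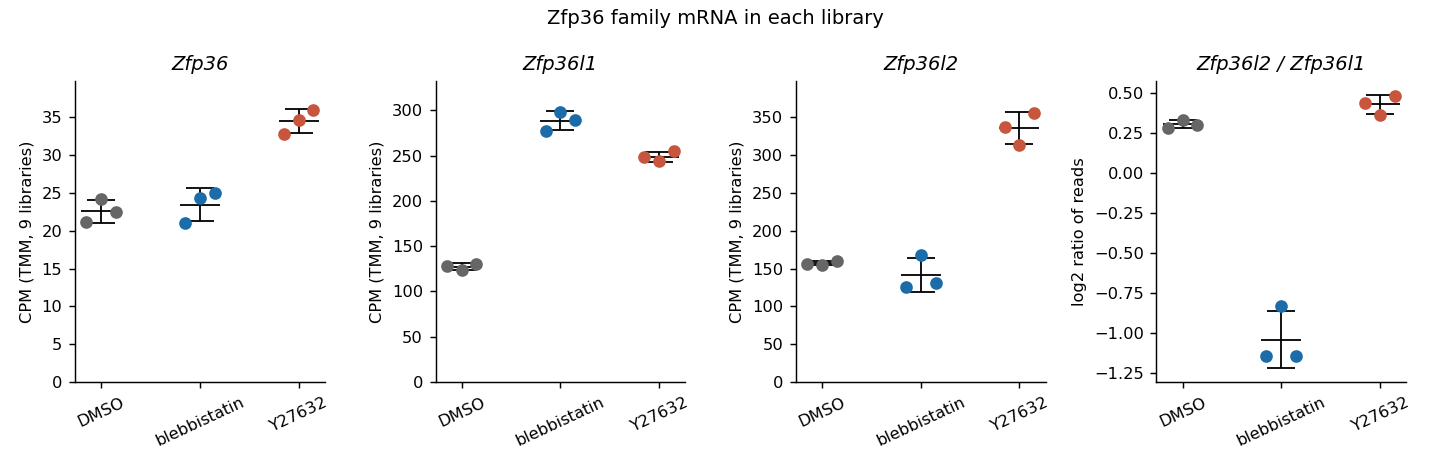
Level of each member in CPM (TMM scaling over 9 libraries) and, at the right, the log2 ratio of Zfp36l2 to Zfp36l1 reads; points are libraries, with replicates 1, 2 and 3 from left to right, and bars are the mean and SD of 3. Zfp36l1 is higher in both treated groups, Zfp36l2 and Zfp36 in Y27632, and the ratio is lower in the 3 blebbistatin libraries than in the other 6.

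Counted by the call used for all genes (an adjusted p under 0.05), 1 of the 3 members was higher under blebbistatin and 2 were not called, where 53.0% of 14882 genes were called, 26.1% higher and 26.9% lower. Under Y27632 all 3 were called higher, where 35.9% of 14833 genes were called, 18.1% higher and 17.8% lower. In blebbistatin against Y27632, 1 was called higher and 2 lower, where 53.1% of 14955 genes were called, 26.9% higher and 26.2% lower. All 3 members passed the filter on low values in each comparison. Because they were selected on these comparisons, nothing is read from their counts or from the ranks that follow. In the authors' deposited table for Y27632, Zfp36l1 ranked 3rd, Zfp36l2 5th and Zfp36 462nd by the size of the test statistic among 14244 genes with an adjusted p. In the authors' deposited table for blebbistatin they ranked 74th, 10944th and 15558th of 17026.

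**Figure D2:**
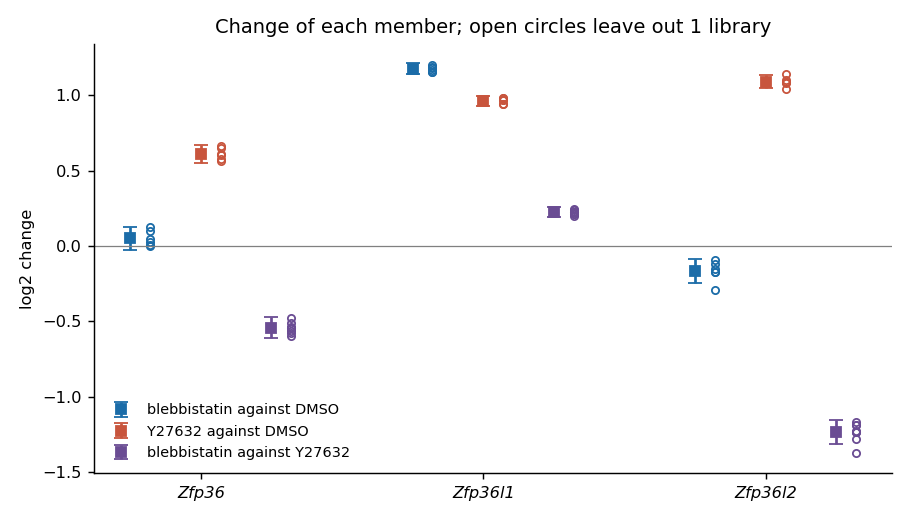
Log2 change of each member in 3 comparisons; squares with bars are the estimate and its SE, and open circles are the estimates with 1 library left out. For Zfp36l2 under blebbistatin the circle at -0.29 is the estimate without the second blebbistatin library, and all circles of Zfp36l2 under Y27632 lie above 1.

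The balance between members was read from the ratio of their reads within a library, in which transcript length and library scaling cancel between libraries. The log2 ratio of Zfp36l2 to Zfp36l1 was 0.28, 0.33 and 0.30 in DMSO, -1.14, -0.83 and -1.15 under blebbistatin, and 0.44, 0.36 and 0.48 under Y27632. All blebbistatin libraries lay below all DMSO libraries, and the Y27632 libraries lay slightly above them, without overlap. Only the shift between groups is read, since the size and sign of a ratio also depend on transcript length. The log2 ratio of Zfp36 to Zfp36l1 had a mean of -2.50 ± 0.13 (SD, n = 3) in DMSO, -3.63 ± 0.10 under blebbistatin and -2.85 ± 0.06 under Y27632. These ratios rest on the levels by which the members were chosen and carry no test. No level of 1 member is set against another here, because transcript lengths were not used.

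Over the 9 libraries, log2 levels of Zfp36 and Zfp36l2 had a Pearson r of 0.94, Zfp36 and Zfp36l1 of 0.41, and Zfp36l1 and Zfp36l2 of 0.24. These describe 9 points in 3 groups that share treatments. Among 11464 other genes with a mean of at least 100 reads, the pattern most like Zfp36l1 was that of Snx9, a sorting nexin of endocytosis (r = 0.999), which was at 250 CPM in DMSO, 427 in blebbistatin and 388 in Y27632. Klf9, a Krüppel-like transcription factor, Sulf2, a heparan sulfate sulfatase, Rerg, a Ras-related GTPase, and Nrep followed, with r of 0.993 or more. Rerg went from 5.42 CPM in DMSO to 17.8 in blebbistatin and 14.9 in Y27632.

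The genes most like Zfp36l2 were the fibroblast cadherin Cdh11 (r = 0.9937), the neutrophil chemokine Cxcl1 (r = 0.9908), Tbc1d20, Reep5 and the hedgehog co-receptor Boc. Cdh11 was at 230, 225 and 282 CPM in DMSO, blebbistatin and Y27632, a smaller change of the same form. Those most like Zfp36 were 9530068E07Rik (r = 0.9785), the ciliary GTPase Arl13b, the F-box protein gene Fbxw11, Mgea5 (O-GlcNAcase) and Pcif1, a cap methyltransferase. Snx9 stayed first for Zfp36l1 whichever of the 9 libraries was left out, but only 2 of its 5 genes stayed among the first 5 without the second Y27632 library. The first gene changed in most of those 9 repeats for Zfp36 and in some for Zfp36l2. For both, as few as 1 of the 5 genes stayed among the first 5.

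The genes that act on or with the family were taken from lists by role, written with results on these libraries known. A call is an adjusted p under 0.05 over all genes tested, from limma for each inhibitor against DMSO and from edgeR's quasi-likelihood test for the inhibitors against each other, with Benjamini-Hochberg adjustment. The median log2 change of all genes tested was 0.0021 under blebbistatin, 0.004 under Y27632 and 0.0053 between them. The comparisons with DMSO share the DMSO libraries.

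Of 22 kinases, phosphatase subunits and 14-3-3 adaptors that act on the family, 5 rose and 10 fell under blebbistatin (median -0.06), and 6 rose and 5 fell under Y27632 (median 0.00). The share called was 68.2% under blebbistatin, against 53.0% of all genes, and 50% under Y27632, against 35.9%. Mapkapk2, which encodes MK2, was at 141, 135 and 141 CPM in DMSO, blebbistatin and Y27632 and was called in none of the comparisons. Mapkapk3, its closest relative, rose under blebbistatin from 18.1 ± 0.181 to 31.5 ± 1.16 CPM (SD, n = 3; log2 change 0.80 ± 0.05, limma adjusted p = 7.43e-08) and under Y27632 to 22.5 ± 0.0428 CPM (0.32 ± 0.05, adjusted p = 4e-04). Mapk14, which encodes p38α, fell under Y27632 from 84.5 ± 1.35 to 68.7 ± 1.28 CPM (-0.30 ± 0.04, adjusted p = 2.53e-05). Map2k3, a kinase that activates p38, rose under Y27632 (0.38 ± 0.04). Map2k6, which also activates p38, rose under blebbistatin (1.05 ± 0.10, from 5.02 to 10.5 CPM) and was called lower under Y27632 at an adjusted p of 0.0499 by limma, a call that edgeR and DESeq2 did not make (adjusted p = 0.0559 and 0.172).

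The 14-3-3 genes did not move as a block. Ywhae and Ywhab fell under both inhibitors, Ywhae from 439 ± 13.2 CPM to 339 ± 5.36 under blebbistatin and 386 ± 4.52 under Y27632. Ywhah rose under Y27632 (log2 change 0.30 ± 0.05) and was at 0.00 ± 0.05 under blebbistatin. Ywhag fell under blebbistatin (-0.11 ± 0.03) and rose under Y27632 (0.15 ± 0.03). Rps6ka3, a kinase activated by growth factors, fell under blebbistatin (-0.46 ± 0.04) and under Y27632 (-0.20 ± 0.04).

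The list medians of the decay machinery stayed near 0. Of 20 genes for CCR4-NOT and poly(A) removal, 5 rose and 3 fell under blebbistatin (median 0.02) and 9 rose and 1 fell under Y27632 (median 0.09). The share called was 40% under blebbistatin, against 53.0% of all genes, and 50% under Y27632, against 35.9%, nearly all of it higher. The highest were adaptors that bind the deadenylase rather than its subunits. Btg2, also an immediate early gene, rose from 23.3 ± 2.08 to 56.1 ± 3.62 CPM under Y27632 (log2 change 1.27 ± 0.07, limma adjusted p = 1.4e-08) and to 28.8 ± 1.41 under blebbistatin (0.31 ± 0.07, adjusted p = 0.00242). Btg1 rose more under blebbistatin, to 125 ± 1.51 from 72.1 ± 1.11 CPM, than under Y27632, at 102 ± 3.17 (direct difference 0.31 ± 0.03, edgeR adjusted p = 2.2e-06). Tob1, of the same adaptor family, fell under both (-0.43 ± 0.04 and -0.25 ± 0.04). The catalytic subunit Cnot7 rose under Y27632 (0.15 ± 0.04), and its scaffold Cnot1 was called lower under blebbistatin by limma at an adjusted p of 0.0439, a call lost in 5 of the 6 fits that left out a library.

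Of 15 genes for decapping and 5′ to 3′ decay, 4 rose and 3 fell under blebbistatin (median 0.02) and 7 rose and 0 fell under Y27632 (median 0.11). The share called was 46.7% under each inhibitor, against 53.0% of all genes under blebbistatin and 35.9% under Y27632, where 18.1% were called higher. The limma calls under Y27632 depended on single libraries, with 3 called without the second Y27632 library and 4 without the second or the third DMSO library. Without that Y27632 library 6 rather than 10 poly(A) removal genes were called. Gigyf1, of the cap-binding repressor complex, rose most under blebbistatin (0.43 ± 0.04). Its partner Eif4e2 fell under blebbistatin (-0.12 ± 0.04) and rose under Y27632 (0.15 ± 0.04). The decapping cofactor Dcp1a fell under blebbistatin (-0.24 ± 0.05), and the exonuclease gene Xrn2 rose under both (0.24 ± 0.04 and 0.26 ± 0.04).

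Of 17 other proteins that bind AU-rich or related elements, 1 rose and 8 fell under blebbistatin (median -0.09), and 2 rose and 2 fell under Y27632 (median 0.01). The share called was 52.9% under blebbistatin, near the 53.0% of all genes, and 23.5% under Y27632, against 35.9%. Celf2 fell under both, from 162 ± 3.24 CPM to 89.5 ± 4.9 under blebbistatin (log2 change -0.86 ± 0.04, limma adjusted p = 5.95e-09) and 123 ± 6.38 under Y27632 (-0.40 ± 0.04, adjusted p = 6.95e-06). Zc3h12a (Regnase-1), a CCCH endonuclease of cytokine mRNAs, rose under Y27632 from 17.7 ± 0.921 to 31.3 ± 3 CPM (0.81 ± 0.07, adjusted p = 2.03e-06). It was at 0.16 ± 0.08 under blebbistatin, and the inhibitors differed by -0.65 ± 0.08 (edgeR adjusted p = 1.23e-05). Hnrnpd (AUF1) fell more under Y27632 than under blebbistatin, with a direct difference of 0.18 ± 0.05. Elavl1, which encodes the stabilising factor HuR, fell under blebbistatin (-0.26 ± 0.06) and was at 0.01 ± 0.05 under Y27632.

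**Figure D3:**
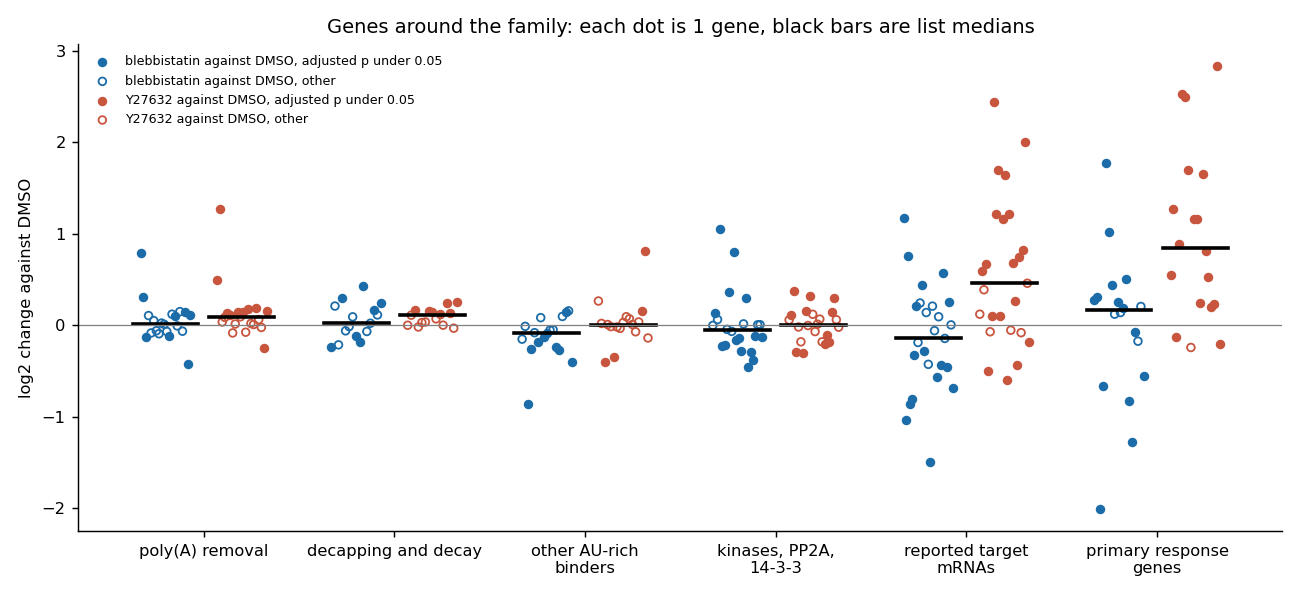
Log2 change against DMSO of each tested gene of 6 lists; filled dots are genes at an adjusted p under 0.05 by limma, open dots are the others, and black bars are medians. The medians of the poly(A) removal and decapping lists lie near 0 while single genes such as Btg2 (1.27 under Y27632) stand away from it, and under Y27632 the medians of the reported targets and the primary response genes are 0.46 and 0.85.

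Of 30 mRNAs reported as AU-rich targets of the family, 25 were tested and the other 5, Csf2, Dll4, Il10, Il1b and Il23a, were under the minimum. Under blebbistatin 6 of the 25 rose and 10 fell (median -0.15). Under Y27632 15 rose and 4 fell (median 0.46). In blebbistatin against Y27632, 2 were higher and 16 lower (median -0.49). The shares called were 64%, 76% and 72% in these comparisons, against 53.0%, 35.9% and 53.1% of all genes. The list was written with results on these libraries known, so its direction is not independent evidence, and decay was not measured.

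Cxcl1 rose under Y27632 from 3.92 ± 0.0932 to 21.6 ± 3.63 CPM (SD, n = 3; log2 change 2.44 ± 0.11, limma adjusted p = 5.75e-09) and was at 3.51 ± 0.862 under blebbistatin. Ptgs2, which encodes cyclooxygenase-2, rose from 44 ± 4.88 to 177 ± 29.6 CPM under Y27632 (limma adjusted p = 1.23e-08) and to 52.5 ± 6.1 under blebbistatin (0.25 ± 0.09). Il6 was low throughout, at 8 to 72 reads per library, and was higher in Y27632 than in blebbistatin (direct difference -2.16 ± 0.31, edgeR adjusted p = 4.79e-05). Tnf, the classic target of Zfp36, was at 0.945, 0.92 and 1.29 CPM in DMSO, blebbistatin and Y27632 and was not called.

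A set of 5 targets was called in opposite directions by the inhibitors. The share of all genes called in this way was not counted, so the number is not read as a trait of the targets. Ccl2 fell under blebbistatin (-1.04 ± 0.07) and rose under Y27632 (0.60 ± 0.06), as did Ccl7 (-0.86 ± 0.07 and 0.67 ± 0.06), both monocyte chemokines. Myc (-0.57 ± 0.05 and 0.68 ± 0.06), Plk3 (-0.45 ± 0.09 and 0.82 ± 0.09) and, by a small margin, Hif1a (-0.29 ± 0.03 and 0.10 ± 0.03) did the same. In the direct test of blebbistatin against Y27632 the log2 difference was -1.62 ± 0.09 for Ccl2 and -1.24 ± 0.06 for Myc (edgeR adjusted p = 2.74e-09 and 7.28e-10).

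Other reported targets moved together under both drugs or under 1 of them. The cyclin gene Ccnd1 fell under both (-0.81 ± 0.04 and -0.50 ± 0.03). Bcl2 rose under blebbistatin from 5.16 ± 0.126 to 11.7 ± 0.638 CPM (1.17 ± 0.09) and was at 0.12 ± 0.11 under Y27632.

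Zfp36 belongs to the primary response genes, and 18 others of this class were read beside it, of which Fos and Ier3 are also among the targets and Btg2 among the deadenylase adaptors. Under blebbistatin 8 rose and 6 fell (median 0.17), and under Y27632 15 rose and 2 fell (median 0.85). In blebbistatin against Y27632, 1 was higher and 16 lower (median -0.98). The shares called were 77.8%, 94.4% and 94.4%, against 53.0%, 35.9% and 53.1% of all genes. This list was also written with results on these libraries known, so its shares and directions are not independent evidence. Nr4a1, a nuclear receptor, rose from 12.9 ± 1.09 to 92.7 ± 14 CPM under Y27632 (2.83 ± 0.09, limma adjusted p = 7.43e-10) and was at 15 ± 2.62 under blebbistatin.

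Egr1, whose motif stands in the Zfp36 promoter shown above, rose under both, from 30.8 ± 5.71 to 106 ± 21.2 CPM under blebbistatin and 176 ± 14.8 under Y27632 (log2 changes 1.78 ± 0.14 and 2.52 ± 0.10). Srf, which encodes the factor that binds CArG boxes, fell under both (-0.56 ± 0.05 and -0.20 ± 0.05). Cyr61, a target of YAP and serum response factor, fell under blebbistatin from 396 ± 20.9 to 98.4 ± 9.09 CPM and was at 362 ± 20 under Y27632. Klf2, Klf4, Klf6 and Dusp1, a phosphatase of p38 and other MAP kinases, were called lower under blebbistatin and higher under Y27632. How common such opposite calls were among all genes was not counted. Klf4 was at 279 ± 2.21 CPM in DMSO, 115 ± 5.23 in blebbistatin and 401 ± 6.46 in Y27632, and Dusp1 had a direct difference of -1.53 ± 0.05 (edgeR adjusted p = 1.17e-11). The blebbistatin call of Klf6 (-0.08 ± 0.03, limma adjusted p = 0.0414) was not made by DESeq2.

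The second blebbistatin library, in which Zfp36l2 was high, was the highest of its group for 9 of the 18 primary response genes, and the third was highest for 8. Over 11465 genes with a mean of at least 100 reads, 4537 were highest in the second library and 3561 in the third. In the second library Klf2, Ier5 and Junb lay farthest above their group mean among the 18, by 0.28, 0.21 and 0.24 on the log2 scale. Zfp36l2 lay 0.26 above. Egr1, Egr2, Fos and Btg2 lay below their group mean there, at -0.05, -0.04, -0.10 and -0.05. Without this library Zfp36l2 under blebbistatin was at -0.29 against DMSO and at -1.38 against Y27632.

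Of the 5 sites given to a member, 4 were in the list of doxycycline against neither drug and were higher with doxycycline. The fifth was in the list of blebbistatin against no blebbistatin, both with doxycycline, and was lower with blebbistatin. The lists of blebbistatin alone (1231 sites), ATAC under blebbistatin (970 sites) and ATAC under Y27632 (207 sites) gave 0 sites to a member. Site values are the authors', as log2 group means with no value per library, so no spread or test is added here. In the doxycycline list 95.849% of 7613 sites were higher, and in the list of blebbistatin with doxycycline 0.221% of 6346 were, so the direction of the members' sites was that of nearly the whole list. Each list stops at an FDR of 0.05. The smallest log2 fold in either direction was 1.0 in the doxycycline list and in the lists of blebbistatin with and without doxycycline. It was 1.24 in ATAC under blebbistatin and 1.11 in ATAC under Y27632. Smaller changes are not in the lists, and a member with no listed site may still carry a peak.

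The Zfp36 promoter site, chr7:28379066-28379401, had its centre at -6 bp from the start (negative is upstream). Its log2 mean was 7.47 with neither drug and 8.5 with doxycycline, a log2 fold of 1.03 (authors' FDR 4.21e-06). The site covers 173 of the 250 bases printed above, the CArG box, ETS and EGR matches among them. Its level with neither drug was above that of 91.8% of sites in the list. Its fold was below the list's median of 1.17 and near the smallest in the list, 1.0. Promoter sites of this list had a median level of 6.83 with neither drug and a median fold of 1.09.

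The Zfp36l1 promoter site, chr12:80112885-80113202, had its centre at -31 bp and covers 189 of the printed bases, with both matches. It went from 6.42 to 7.7, a log2 fold of 1.29 (authors' FDR 2.95e-09). Promoter sites were 1422 of that list, 1421 of them higher, and 8.36% of the 14882 genes tested under blebbistatin had one. No promoter site of Zfp36l2 was listed.

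The other doxycycline sites were distal. An intergenic site 80.3 kb downstream of the Zfp36l1 start, chr12:80032548-80032821, went from 5.34 to 6.81, a log2 fold of 1.46 (authors' FDR 1.38e-07). A site at -68.6 kb from the Zfp36l2 start, chr17:84256456-84256696, lies in intron 30 of 37 of Thada, in an L2c LINE repeat, and went from 5.02 to 6.18, a log2 fold of 1.16 (authors' FDR 0.000122). The site that was lower with blebbistatin, chr12:80046690-80046988, lies 66.2 kb downstream of the Zfp36l1 start in a MIRc SINE repeat between genes, and went from 6.14 to 5.03, a log2 fold of -1.11 (authors' FDR 3.73e-05). None of the 5 overlapped a site of another list by 1 bp. The assignment of the distal sites to a member rests on the nearest start alone.

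Within 200 kb of the starts, whatever the annotation, the lists that recorded blebbistatin held lower sites and the doxycycline list held higher ones. Nearly all sites of each of these lists go the same way. Only 1.753% of sites were higher in ATAC under blebbistatin, and 0.975% under blebbistatin without doxycycline. A site in intron 2 of 12 of Samd4b, at -40.5 kb from the Zfp36 start and chr7:28419412-28419947, was the one position listed 4 times. Its log2 fold was -1.38 in ATAC under blebbistatin, -1.19 under blebbistatin without doxycycline, -1.42 under blebbistatin with doxycycline and 1.11 under doxycycline alone. It was chosen after its values were seen. No site within 200 kb was listed under Y27632, but that list held only 207 sites over the genome. Nothing is read from this absence.

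**Figure D4:**
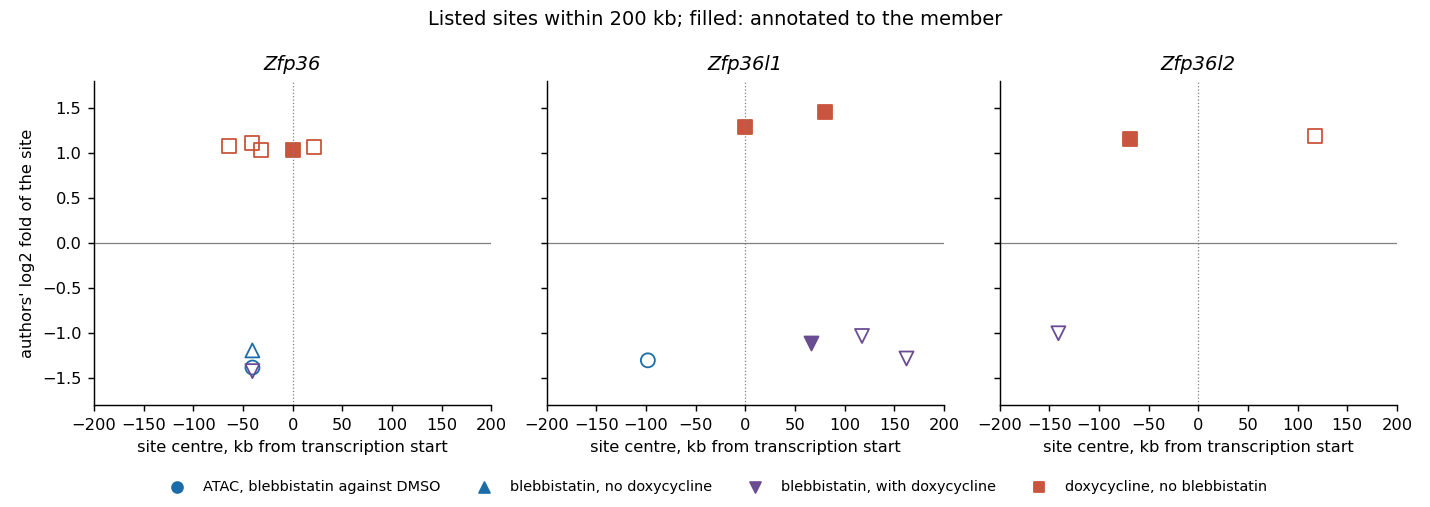
Authors' log2 fold of each listed site within 200 kb of a member's transcription start, against the distance of its centre in kb (negative is upstream); symbols give the list and filled symbols are sites annotated to the member. The sites that were higher, from the doxycycline list, include the Zfp36 and Zfp36l1 starts, and all sites from the blebbistatin lists are lower. Nearly all sites of each list go the same way over the genome.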

How the data were processed

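The members and gene lists were chosen with earlier results of these data known. Per the file headers and the values, the authors deposited a signal per gene and library, counts divided by 1 size factor per library in each table. All values above 0 were whole multiples of 1 read, within 0.01 at low counts. At high counts the tolerance grew in proportion to the reads, so at the highest this check could not fail. The submitters' processing notes name HISAT2, Picard, featureCounts, DESeq2, Bowtie2, SAMtools, MACS2, DiffBind and HOMER and the build mm10, with no versions. Strand, annotation and the scaling between ATAC libraries are not given in the sources used here. The authors deposited log2 folds, p-value and FDR columns, and another column with the distance to the nearest start, per the file headers. The doxycycline list heads its reference column as the blebbistatin group. It was read as the group with neither drug, because at 13 shared sites its values differed from that group by a mean of -0.13 (SD 0.0044) and from the named group by 1.12 (SD 0.184).

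A gene was tested when its normalised counts averaged 10 or more, with limma 3.58.1 (R 4.3.3, trend) on log2(normalised count + 1), a scale that understates changes of low genes. Recovered reads of 9 libraries, scaled by TMM, gave CPM and the comparison between the inhibitors, by the quasi-likelihood test of edgeR 4.0.16. Tests were two-sided, with Benjamini-Hochberg adjustment. They were also run on simulated counts with few changed genes and the same spread for all genes. These libraries differ from that setting, so the run does not vouch for the calls. DESeq2 1.42.0 and edgeR on 6 libraries, pseudocounts of 0.5 and 5, other filters, left-out libraries and a replicate block were alternatives. Genes named are the members, the 5 genes most like each by Pearson r, and per list and comparison the 2 highest and 2 lowest called changes and genes called in opposite directions. A gene that met this rule is not reported here. Mapkapk2, Cnot7, Elavl1, Tnf, Ywhab, Ywhah, Ier5 and Junb were named for their role or after their values were seen. Promoter windows were matched by symbol for 2 of the 3 members.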

Additional observations from a re-analysis of the deposited data

How the results depend on the processing

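All 9 log2 changes of the members kept their direction and their side of the threshold under the other pseudocounts, filters, tools and scalings and the replicate block. With 1 library left out, Zfp36l2 under blebbistatin was between -0.29 and -0.09 and was called only without the second blebbistatin library, and Zfp36 under blebbistatin was between -0.002 and 0.13. Genes called numbered 6994 to 7394 under blebbistatin, 4304 to 4839 under Y27632 and 7166 to 7985 between the inhibitors with 1 library left out. Under Y27632, poly(A) removal genes called were 6 to 8 and decapping genes 3 to 6 in those fits. Limited to 50 kb from the start, the doxycycline list held 2 sites of a member and the list of blebbistatin with doxycycline 0. Single genes were followed only where the naming rule picked them. Among these, the calls of Ccl3, Cnot1, Klf6, Eif4e2 and Tial1 under blebbistatin, Map2k6, Cyr61, Hif1a, Lsm1 and Tial1 under Y27632, and Fosb and Khsrp between the inhibitors were lost in at least 1 alternative, and the cause was not tested. Same-numbered libraries did not deviate together (correlations -0.217 to 0.068), and 2, 0 and 1 of 6 libraries correlated best with their own number in the 3 comparisons. No pairing by number was seen, but so few libraries per group cannot exclude it. The replicate block gave 7604, 4633 and 7700 called genes, with Zfp36l2 at -0.17 under blebbistatin, 1.09 under Y27632 and -1.24 between the inhibitors. Among the genes followed singly it ended the calls of Ccl3 and Klf6 under blebbistatin and of Map2k6, Tial1 and Hif1a under Y27632. Called genes for poly(A) removal went with it from 8 to 7 under blebbistatin and from 10 to 8 under Y27632, and called decapping genes under Y27632 from 7 to 5. Depth limits Il6, Tnf, Ccl3 and Cxcl2, which had few reads.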
